A study of Homo sapiens with 28 samples.

Results

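The region described here is the 250 kb of human chromosome 2 that holds the interleukin-1 genes IL1A and IL1B (hg19 chr2:113450000-113700000). Its members are the peaks of 28 CUT&RUN peak lists that overlap it by at least 1 bp. They numbered 252 of the 1123812 peaks in all lists: 18 FOXF1 peaks, 88 peaks of phosphorylated c-JUN (p-c-JUN) and 146 peaks of histone H3 acetylated at lysine 27 (H3K27ac). IL1A lies near 113.54 Mb and IL1B near 113.59 Mb of hg19. These positions are rounded to 0.01 Mb, so a site less than about 10 kb from one of them is not placed on either side of the gene's start here.

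IL1A and IL1B encode the cytokines IL-1α and IL-1β, which signal through the same receptor. In senescent cells the membrane-bound form of IL-1α is known to act upstream of other cytokines of the senescence-associated secretory phenotype, the set of inflammatory proteins that these cells release. c-JUN is a subunit of AP-1, a dimeric transcription factor that binds enhancers and is activated by phosphorylation. FOXF1 belongs to the forkhead family and is expressed in the mesenchyme of the lung. H3K27ac marks active promoters and enhancers.

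All libraries came from IMR-90 ER:Ras cells, a human lung fibroblast line with an inducible Ras oncoprotein that 4-hydroxytamoxifen (4-OHT) activates. Senescent cells (Sen) had 100 nM 4-OHT for 6 days and a control siRNA. The other senescent groups had the same 4-OHT with siRNA to FOXF1 and FOXF2 (siFOXF1/2), to p300 and CBP (sip300/CBP, with senescent control libraries of its own), or to the JUN family (cJUN/JUND-KD). The treatment tag of the last group names JUNB as well. The proliferating group (Pro) is named so only in the titles: its treatment and cell type tags are those of the Sen group. Each of the 13 groups had 2 libraries, except H3K27ac Sen, whose replicates 1 and 2 were deposited with 22 libraries and replicates 3 and 4 with 6 later ones, among them all cJUN/JUND-KD libraries. The labels do not say whether replicates were separate cultures, so the spread below may be technical. All groups come from 1 line, and markers of fibroblasts and of other cell types were not analysed here.

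The 2 promoters at the centre of the window are shown because p-c-JUN and H3K27ac sites lay close to both gene positions. Each line gives the 250 bases before the outermost annotated start, 5′ to 3′ on the gene's strand, from RefSeq (GRCh38.p14). Both genes lie on the minus strand, so higher coordinates are upstream. Capitals mark the AP-1 letters TGACTCA.
IL1A: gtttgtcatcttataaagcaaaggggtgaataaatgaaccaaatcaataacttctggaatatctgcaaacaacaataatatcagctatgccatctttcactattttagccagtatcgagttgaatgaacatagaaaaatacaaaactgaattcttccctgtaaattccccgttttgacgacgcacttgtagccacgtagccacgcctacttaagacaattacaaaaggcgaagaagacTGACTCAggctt
IL1B: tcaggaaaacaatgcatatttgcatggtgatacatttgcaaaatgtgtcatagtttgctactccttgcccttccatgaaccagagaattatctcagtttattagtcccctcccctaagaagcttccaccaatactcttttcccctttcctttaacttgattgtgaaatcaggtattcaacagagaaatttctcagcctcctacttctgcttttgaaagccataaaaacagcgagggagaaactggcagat
TGACTCA or its other-strand form TGAGTCA was searched on both strands, as was the forkhead motif TGTTTAC with GTAAACA. The IL1A window held 1 AP-1 match, 6 to 12 bases before the start, and the IL1B window held none of these letters. Of 35116 promoters of the same length, 4.20% held an AP-1 match and 2.98% a forkhead match. In RefSeq's order along the chromosome the neighbours are NT5DC4, CKAP2L, IL1A, the long non-coding RNA LOC124907871, IL1B, the long non-coding RNA AMANZI and, farther on, IL37.

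Lists differed in length from 133 to 93443 peaks, and 21 of the 28 had a peak in the window. No 2 lists were identical. The sequencing depth of the libraries is not given by the lists. A missing peak means that none was called, not that no protein was bound. Peaks of one antibody that overlapped by at least 1 bp in any list were joined into a site, which gave 13 FOXF1, 29 p-c-JUN and 37 H3K27ac sites in the window. A site is called gained where both libraries of a condition hold it and neither library of the other does, and lost in the reverse case. Counts of window peaks were compared on the log2(peaks + 1) scale with a two-sided exact permutation test, which cannot go below p = 0.333 with 2 libraries against 2. None of the 9 comparisons can therefore pass a threshold of 0.05, and the site counts are set beside the share of all sites of the genome with the same call.

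**Figure D1:**
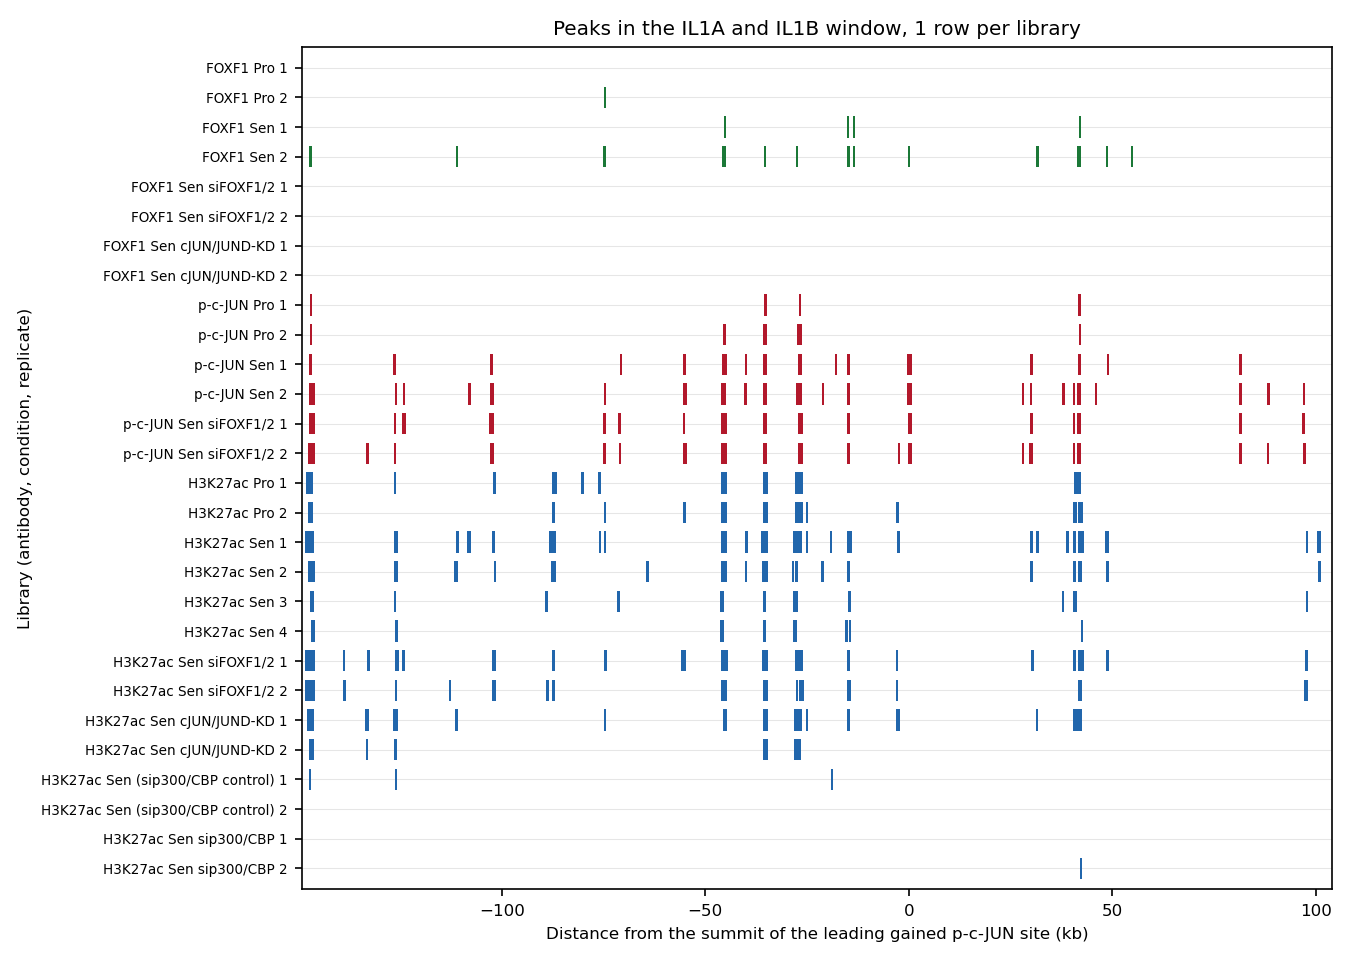
Peaks of the IL1A and IL1B window, 1 row per library (FOXF1 green, p-c-JUN red, H3K27ac blue), by distance in kb from the summit of the p-c-JUN site that ranks first in the window in both Sen lists. Bars are peaks, widened slightly to be visible. The FOXF1 siFOXF1/2 and cJUN/JUND-KD rows are empty, and p-c-JUN Sen rows hold 16 and 24 peaks against 4 and 6 in Pro.

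In senescent cells FOXF1 had 4 reproducible sites at the locus, 3 of them between the positions of the 2 genes, and proliferating cells had none of the 4. The Pro lists held 0 and 1 window peaks and the Sen lists 4 and 13, so the groups did not overlap. The difference on the log2 scale was 2.56 ± 0.895 (SE, n = 2 against 2; exact permutation p = 0.333, adjusted over the 9 comparisons 0.6). Per 10000 peaks of the list these were 0 and 0.904 in Pro, and 2.94 and 3.21 in Sen. At the Sen share, the 3441 and 11061 peaks of the Pro lists would have given 1.08 and 3.47 window peaks.

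Of the 13 FOXF1 sites, 4 were gained in senescence and none was lost or held by all 4 libraries. Over the genome 13.1% of sites were gained, 0.35% lost and 4.51% held by all 4, and 1.55% of 10031 tiles of the window's length had 4 or more gained FOXF1 sites. All 4 peaks of Sen replicate 1 were thus shared with replicate 2. The other 9 sites were held by Sen replicate 2, the longer list, 1 of them also by Pro replicate 2. Without Sen replicate 1 the gained sites would be 12, and with lists cut to equal length 1.

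The FOXF1 site that ranked first in the window in both Sen lists, at chr2:113583467-113583691, overlapped no site of the other signals. Its summit carried 14 and 28 fragments, read back from the deposited fold enrichment and p-value, and the authors' fold enrichments were 6.64 and 7.33. No p-c-JUN list and no H3K27ac list had a peak there. The nearest p-c-JUN summits of the Sen libraries were 1421 to 1517 bp away. The nearest H3K27ac site, chr2:113582005-113582931, was gained in senescence and overlapped gained FOXF1 and p-c-JUN sites. Of the 11303 FOXF1 sites held by both Sen libraries genome-wide, 2.13% lacked both p-c-JUN and H3K27ac in every list.

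The other 3 reproducible FOXF1 sites each overlapped p-c-JUN and H3K27ac sites of both Sen libraries. With the leading site counted, that was 3 of 4 for either signal, near the 74.2% and 71.4% of such FOXF1 sites in the genome. The site at chr2:113582113-113582464, between the 2 gene positions, had 9 and 17 summit fragments. The one at chr2:113638647-113639329, upstream of IL1B, had 12 and 23. The weakest, at chr2:113551353-113551986 upstream of IL1A and nearest to it, had 6 and 7 and ranked last in the window in both lists. The FOXF1 and p-c-JUN summits of the Sen libraries were 20 to 124 bp apart at the first of these, 72 to 91 bp at the second and 153 to 508 bp at the third.

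No FOXF1 peak was called in the window after siFOXF1/2 or in cJUN/JUND-KD cells. In both comparisons 4 of 13 sites (30.8%) were lost, near the 26.3% and 25.5% of the genome. The 4 were the reproducible Sen sites. Genome-wide, 11232 sites were lost after siFOXF1/2 beside 11303 held by both Sen libraries, so this loss was no trait of the locus. No site was gained, against 0.0561% and 0.146% of sites in the genome, and none was held by all 4 libraries, against 0.124% and 0.194%. These 4 lists had 186, 133, 378 and 883 peaks in all. At the Sen share they would have held 0.0584, 0.0418, 0.119 and 0.277 window peaks, so absence from the locus and the short lists cannot be told apart. The cJUN/JUND-KD lists are of the second deposit, which holds no FOXF1 Sen list, so that knockdown cannot be told apart from the deposit either. Both log2 differences were -3.06 ± 0.743 (SE, n = 2 against 2; exact permutation p = 0.333, adjusted 0.6), and with lists cut to equal length they were 0.

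**Figure D2:**
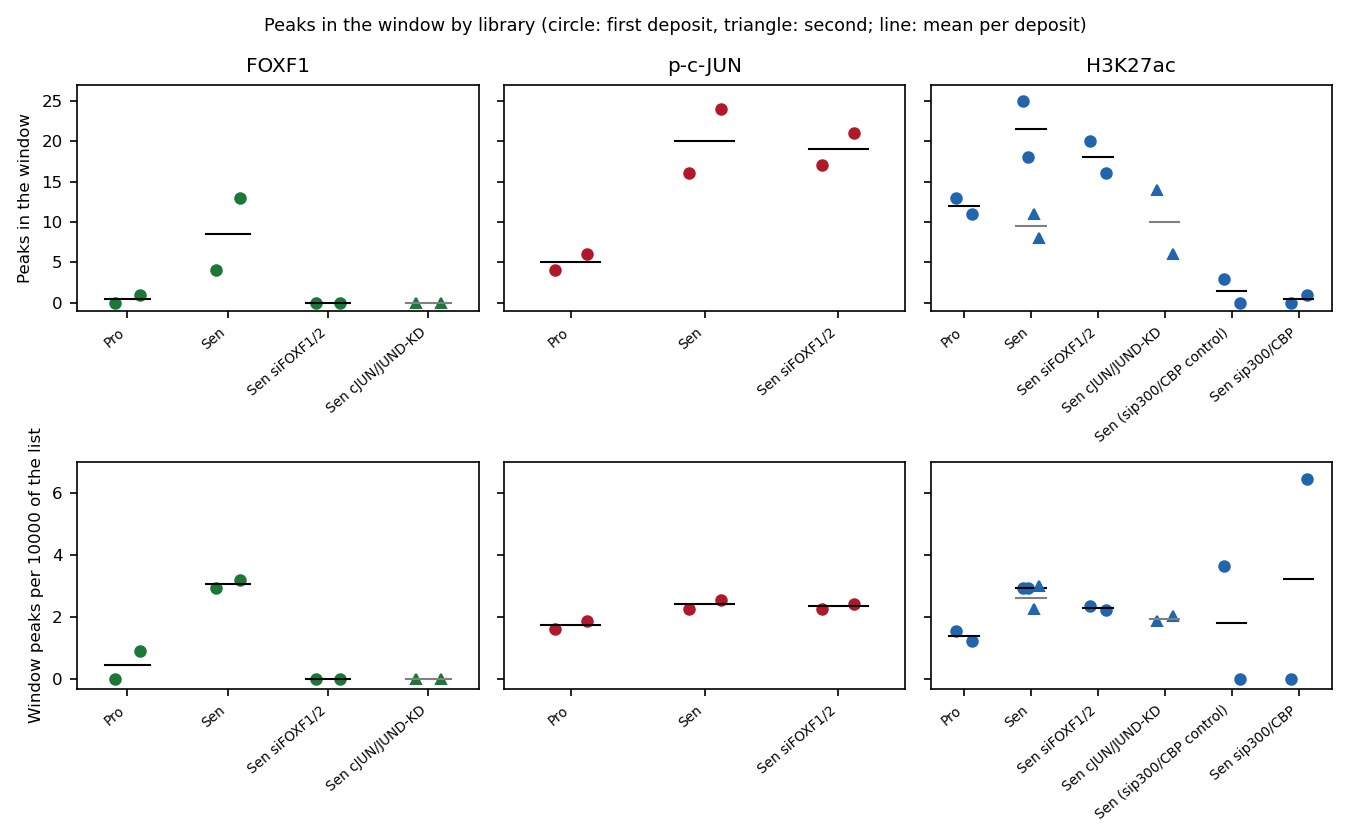
Peaks in the window (upper row) and per 10000 peaks of the list (lower row) for every library, by antibody and condition. Points are libraries (circles for the first deposit, triangles for the second) and lines are means per deposit. H3K27ac Sen libraries of the second deposit lie lower in number (11 and 8) than those of the first (25 and 18), while per 10000 all 4 lie above both Pro libraries.

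p-c-JUN held 4 sites of the locus in every library of every condition and 8 more that were present in both Sen libraries and in neither Pro library. The Pro lists had 4 and 6 window peaks and the Sen lists 16 and 24. The log2 difference was 1.80 ± 0.369 (SE, n = 2 against 2; exact permutation p = 0.333, adjusted 0.6). The Sen lists were longer over the whole genome, and per 10000 peaks the window held 1.61 and 1.87 in Pro against 2.28 and 2.57 in Sen. With all 4 lists cut to the 24808 strongest peaks, the Sen libraries together had 14 window peaks and the Pro libraries 9. The 8 gained sites of 27 were 29.6%, close to the 28.3% of p-c-JUN sites gained in the genome. None was lost and 4 were held by both Pro and both Sen libraries, where the genome's shares were 0.307% and 18.2%. The gained sites numbered 2 with lists of equal length and 19 without Sen replicate 1.

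The gained p-c-JUN site that ranked first in the window in both Sen lists lay at chr2:113596807-113597846, on the side of the IL1B position away from IL1A. Its summits had 37 and 56 fragments in the Sen libraries and 22 and 24 after siFOXF1/2, and no Pro list had a peak. The FOXF1 peak of Sen replicate 2 there had its summit 9 and 32 bp from the p-c-JUN summits. None of the 14 H3K27ac lists had a peak in this site. A second gained site, chr2:113678373-113678871, also lacked H3K27ac in every list. These were 2 of the 8 gained sites, and 29.3% of gained p-c-JUN sites in the genome.

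The gained p-c-JUN site nearest to IL1A, chr2:113541791-113542329, was weak in senescence. Its summits had 5 and 9 fragments in the Sen libraries and 18 and 11 after siFOXF1/2. Near IL1B a p-c-JUN peak was called at chr2:113594532-113594781 only in siFOXF1/2 replicate 2, with 10 fragments. The site nearest to IL1A thus carried fewer fragments in the Sen libraries than the leading gained site, and the one near IL1B had no peak called in them.

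The other gained p-c-JUN sites were at chr2:113470554-113471179 and chr2:113494188-113495070 on the far side of IL1A, at chr2:113556820-113557283 and chr2:113582006-113582515 between the 2 gene positions, and at chr2:113626831-113627576 upstream of IL1B. Their summits had 9 to 27 fragments in the Sen libraries. All but the site at chr2:113556820-113557283 were also held by both siFOXF1/2 libraries.

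The 4 p-c-JUN sites held by all 6 libraries allow a comparison of level. To set libraries side by side, the fragments over a summit were divided by the lowest local background that the peak caller used in the same list, taken here as a stand-in for the unknown depth. This quotient is called the summit level below, and the same quotient for the local background around a peak is called the surrounding level. Whether the peak caller took the local background from the same library or from a control is not known. The surrounding level may therefore not be signal of the antibody. Both were calculated for the sites of chromosome 2 held by all 4 libraries of a comparison.

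At chr2:113561360-113562143, between the genes, the p-c-JUN summit level was 10.8 and 17.7 in Pro, 37.2 and 68.1 in Sen, and 30.6 and 32.8 after siFOXF1/2. At chr2:113569879-113570936 it was 16.8 and 16.1 in Pro, 44.1 and 40.9 in Sen, and 45.9 and 47.6 after siFOXF1/2. Both Sen libraries were above both Pro libraries at each of these sites.
At chr2:113638578-113639342, upstream of IL1B, the values were 10.8 and 19.4 in Pro, 38.6 and 54.5 in Sen, and 27.5 and 29.6 after siFOXF1/2. At chr2:113449509-113451084, at the edge of the window, they were 19.2 and 16.1, then 44.1 and 47.7, then 36.7 and 75.5. The groups did not overlap between Pro and Sen at any of the 4 sites. Over chromosome 2, 65.6% of 1766 such sites had both Sen libraries above both Pro libraries and 3.45% had both below. The median log2 ratio of Sen to Pro was 0.73 over the chromosome and 1.52 over the 4 sites. The surrounding level was higher in both Sen libraries at all 4 sites as well, against 70.4% of the chromosome's sites (5.55% lower), with median log2 ratios of 1.34 and 0.52.

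**Figure D3:**
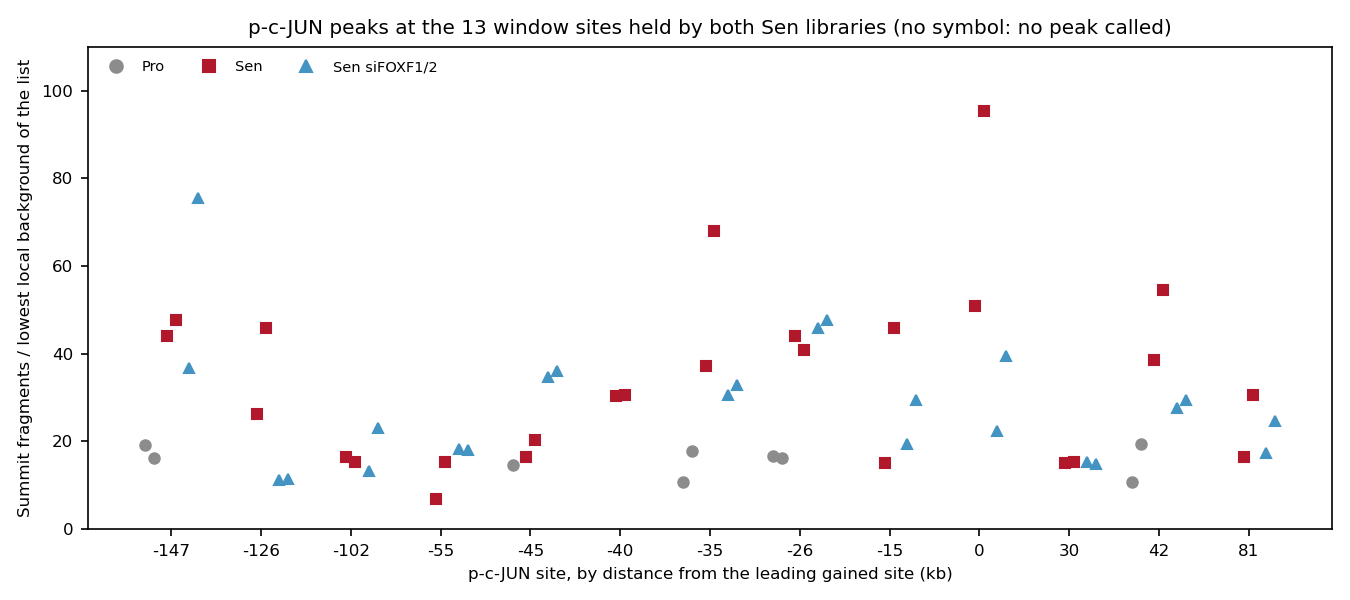
Summit level of p-c-JUN (summit fragments divided by the lowest local background of the list) at the 13 window sites held by both Sen libraries, ordered by position and labelled by distance in kb from the leading gained site. Each symbol is 1 library, and no symbol means no peak called. At 0 kb the siFOXF1/2 values of 22.4 and 39.4 lie below the Sen values of 51.0 and 95.3, and at -126 kb 11.2 and 11.5 lie below 26.2 and 46.0.

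After siFOXF1/2 the number of p-c-JUN peaks at the locus differed by less than the spread between libraries, and 12 of 29 sites were held by all 4 libraries, against 35.9% in the genome. The lists had 17 and 21 window peaks against 16 and 24 in Sen (log2 difference -0.05 ± 0.314 SE, n = 2 against 2; exact permutation p = 1). None of 29 sites was gained and 1 was lost, against 4.48% and 4.04% in the genome. The lost site, chr2:113556820-113557283, lies between the genes and had been gained in senescence, with 22 and 18 summit fragments in the Sen libraries. Over the genome, 4629 of the 5167 lost sites (89.6%) had been gained in senescence. Gain and loss share the 2 Sen libraries. FOXF1 had no peak in this window site in any list, as in 64.1% of the p-c-JUN sites lost over the genome.

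Among the 12 shared p-c-JUN sites, the summit level was lower in both siFOXF1/2 libraries at 4 and higher in both at 3. The shares on chromosome 2 were 19.8% and 17% of 4268 sites. Without Sen replicate 1 the sites with lower levels would be 7 of 12, and without siFOXF1/2 replicate 1 or Sen replicate 2 those with higher levels 5. The surrounding level was lower at 4 and higher at 2, against 16.8% and 24.3%. The leading gained site had a summit level of 51.0 and 95.3 in Sen and of 22.4 and 39.4 after siFOXF1/2, a log2 ratio of -1.23, and 98.9% of the chromosome's sites had a ratio as high or higher. At chr2:113470554-113471179 the levels were 26.2 and 46.0 in Sen and 11.2 and 11.5 after siFOXF1/2 (log2 ratio -1.61, with 99.9% of sites as high or higher). FOXF1 had no peak at the latter site in any list, as at 70.8% of the p-c-JUN sites gained in senescence over the genome. At the leading gained site and at chr2:113561360-113562143, also lower, FOXF1 had a peak in Sen replicate 2 alone. The remaining lower site, chr2:113638578-113639342, was held by FOXF1 in both Sen libraries.

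The site at chr2:113551202-113552337, which FOXF1 also held in both Sen libraries, went the other way. Its p-c-JUN summit level was 16.5 and 20.4 in Sen and 34.7 and 36.1 after siFOXF1/2, a log2 ratio of 0.95. At the site nearest to IL1A the values were 6.89 and 15.3 in Sen and 18.4 and 18.1 after siFOXF1/2. Of all shared sites on chromosome 2, 3.02% and 4.99% had ratios as high as these. FOXF1 had no peak in any list at the site nearest to IL1A or at chr2:113569879-113570936, the remaining site with a higher level. A FOXF1 peak of Sen replicate 2, chr2:113569510-113569720, lay next to the latter without overlapping it. Over the genome, 70.8% of p-c-JUN sites gained in senescence had no FOXF1 peak in any list. Among p-c-JUN sites of all 6 libraries the share was 37.5%.

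H3K27ac gained 6 sites at the locus in senescence and lost none, where the genome as a whole lost more sites than it gained. The Pro lists had 13 and 11 window peaks, and the Sen lists of the same deposit 25 and 18, a log2 difference of 0.78 ± 0.252 (SE, n = 2 against 2; exact permutation p = 0.333, adjusted 0.6). The gained sites were 6 of 28, or 21.4%, against 4.52% of H3K27ac sites in the genome. The genome's share of lost sites was 9.7%. A further 7 sites were held by all 4 libraries, or 25.0%, against 27% in the genome. Of the 10031 tiles, 0.229% had as many gained H3K27ac sites. Without Sen replicate 2 the gained sites would be 11, and among peaks with -log10 q of 5 or more 3.

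The Pro lists held 84304 and 89329 peaks and the Sen lists 84864 and 60862, so the greater number at the locus did not come with longer lists. Per 10000 peaks the window held 1.54 and 1.23 in Pro and 2.95 and 2.96 in Sen. The later Sen replicates 3 and 4 had 11 and 8 window peaks in shorter lists of 48859 and 26694, which is 2.25 and 3.00 per 10000. All 4 Sen libraries lay above both Pro libraries on this scale (two-sided exact permutation p = 0.0667, the smallest that 4 against 2 can give). By number of window peaks, the same 4 against 2 libraries gave a log2 difference of 0.23 (exact permutation p = 0.733). The Pro libraries are all of the first deposit. The Sen controls of sip300/CBP were in neither test. With short lists of 8234 and 2046 peaks, they had 3.64 and 0 per 10000. Of the 6 gained sites, 5 had no peak in replicates 3 and 4, and with these 2 libraries in place of replicates 1 and 2 the gained sites numbered 1.

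That 1 site was at chr2:113582005-113582931, between the gene positions and 7.53 kb from the one given for IL1B. It was held by all 4 Sen libraries, both siFOXF1/2 libraries and 1 of 2 cJUN/JUND-KD libraries, and by neither Pro library. Its summits had 32, 24, 29 and 17 fragments in the 4 Sen libraries, 22 and 21 after siFOXF1/2 and 11 in cJUN/JUND-KD replicate 1. FOXF1 and p-c-JUN were gained inside the same interval, so all 3 signals were gained together here. Of the 5773 H3K27ac sites gained in the genome, 223 (3.86%) were overlapped by gained sites of both factors.

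The other gained H3K27ac sites were at chr2:113485487-113486361, chr2:113557076-113557357, chr2:113627112-113627604, chr2:113645577-113646268 and chr2:113697483-113698291. Their Sen summits had 15 to 36 fragments. Of all 6, 3 overlapped a gained p-c-JUN site, against 32.6% in the genome.

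In the H3K27ac lists, summit and surrounding levels were higher in senescence at most sites that both conditions shared, most of all upstream of IL1B. At chr2:113638674-113640022 the summit level was 14.9 and 14.5 in Pro and 41.4 and 27.1 in Sen replicates 1 and 2. Sen replicate 4 had 53.1 and replicate 3 had no peak in this site. The surrounding level was 3.97 and 3.62 in Pro and 14.6 and 12.2 in Sen replicates 1 and 2, and 25.0 in replicate 4. In the adjoining site, chr2:113637544-113638559, it was 4.00 and 3.60 in Pro, 13.1 and 11.2 in Sen replicates 1 and 2 and 23.3 in replicate 3. The surrounding level was not particular to H3K27ac here. In the p-c-JUN lists it was 1.84 and 2.53 in Pro and 5.72 and 8.33 in Sen at the overlapping site chr2:113638578-113639342.

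Across the 7 sites held by both Pro and both first-deposit Sen libraries, the summit level was higher in both Sen libraries at 5 and lower at none. On chromosome 2 the shares were 23.9% and 33.9% of 3039 sites. The surrounding level was higher at 6 of 7 and lower at none, against 34.8% and 41.3% on the chromosome. Median log2 ratios of Sen to Pro were 0.74 for the summit and 1.28 for the surroundings in the window, and -0.09 and -0.04 over the chromosome. For the surroundings at chr2:113638674-113640022 the log2 ratio was 1.82, and 0.230% of the chromosome's sites had one as high.

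The fold enrichments in the deposited lists did not show this. They divide the summit by the local background, and at chr2:113638674-113640022 the authors' fold was 3.39 and 3.60 in the Pro lists and 2.75, 2.15 and 2.06 in Sen lists 1, 2 and 4. The quotient was smaller while both of its terms were larger on the scale of the list's lowest background.

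**Figure D4:**
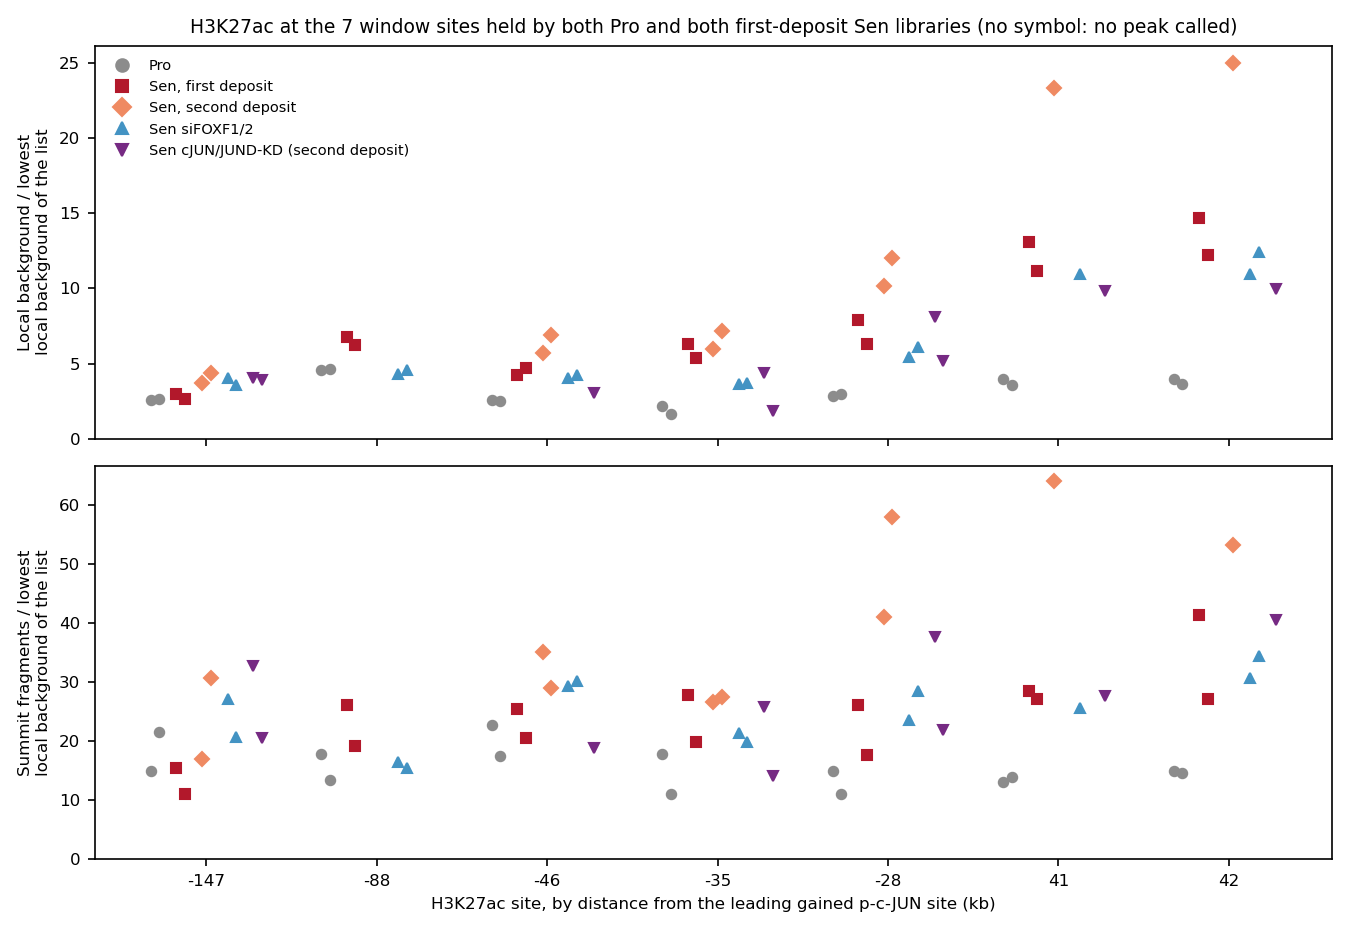
H3K27ac surrounding level (upper panel) and summit level (lower panel) at the 7 window sites held by both Pro and both first-deposit Sen libraries, ordered by position and labelled by distance in kb from the leading gained p-c-JUN site. Each symbol is 1 library, and no symbol means no peak called. At 41 and 42 kb the Pro surrounding levels lie between 3.60 and 4.00, and all Sen and siFOXF1/2 symbols lie higher. For cJUN/JUND-KD only replicate 1 has peaks there, at 9.84 and 9.92, below the second-deposit Sen values of 23.3 and 25.0.

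After siFOXF1/2, the number of H3K27ac peaks at the locus differed from Sen by less than the spread between libraries, while their share of the list was lower. The lists had 20 and 16 window peaks against 25 and 18 (log2 difference -0.23 ± 0.273 SE, n = 2 against 2; exact permutation p = 0.667, adjusted 1). Per 10000 peaks the window held 2.36 and 2.23 after siFOXF1/2, below the 2.95 and 2.96 of Sen replicates 1 and 2 without overlap (difference -0.656, exact permutation p = 0.333, the smallest possible). Against all 4 Sen libraries the groups overlapped (difference -0.492, exact permutation p = 0.267). Of 32 sites, 3 were lost and 1 was gained, against 4.36% and 5.61% in the genome. The lost sites were chr2:113485487-113486361, chr2:113557076-113557357 and chr2:113697483-113698291, all among the 6 gained in senescence. Over the genome, 2511 of the 5208 lost sites had been gained in senescence. Gain and loss share the 2 Sen libraries, and none of the 3 lost window sites had a peak in Sen replicates 3 and 4. The gained site, chr2:113458130-113458678, had 7 and 8 summit fragments. With lists of equal length 5 sites were lost, and against Sen replicates 3 and 4 none was.

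The lost H3K27ac site at chr2:113557076-113557357 shared 208 bp with the p-c-JUN site lost after siFOXF1/2. Both were called in Sen replicates 1 and 2 and in no other list. Its H3K27ac summits had 34 and 27 fragments. Of 2511 H3K27ac sites in the genome that were gained in senescence and lost after siFOXF1/2, 7.93% overlapped a p-c-JUN site with the same history.

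Both Sen and both siFOXF1/2 libraries held 9 of the 32 sites, against 28% in the genome. At these the H3K27ac summit level was higher after siFOXF1/2 at 3 and lower at 2, against 48.7% and 9.55% of 2920 sites on chromosome 2. The surrounding level was higher at 3 and lower at 4, against 50.2% and 19.6%. Median log2 ratios of siFOXF1/2 to Sen were -0.05 for the summit and -0.20 for the surroundings in the window. Over the chromosome they were 0.29 and 0.18. With levels set to equal chromosome medians the summit counts were 1 and 4. Upstream of IL1B, at chr2:113638674-113640022, the surrounding level after siFOXF1/2 was 10.9 and 12.4, beside 14.6 and 12.2 in Sen and 3.97 and 3.62 in Pro. At chr2:113561017-113562376, between the genes, it was 3.63 and 3.68 after siFOXF1/2, 6.30 and 5.39 in Sen and 2.16 and 1.68 in Pro. The siFOXF1/2 values lay between those of the other groups there, without overlap.

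In cJUN/JUND-KD cells the H3K27ac lists had 14 and 6 window peaks, against 11 and 8 in the Sen libraries of the same deposit (log2 difference -0.02 ± 0.588 SE, n = 2 against 2; exact permutation p = 1). Per 10000 peaks they held 1.88 and 2.03, below the 2.25 and 3.00 of those Sen libraries without overlap (difference -0.671, exact permutation p = 0.333). All 4 Sen libraries lay above both cJUN/JUND-KD libraries (difference -0.835, exact permutation p = 0.0667, the smallest that 2 against 4 can give). The Sen controls of sip300/CBP were not among these 4. Sen replicates 1 and 2 are of the first deposit, which holds no cJUN/JUND-KD list, so this test mixes knockdown and deposit. By number of window peaks, the same libraries gave a log2 difference of -0.57 (exact permutation p = 0.4). Of 19 sites 1 was gained and none lost, against 8.03% and 2.57% in the genome. The gained site, chr2:113463684-113464437, had 24 and 13 summit fragments and was also held by siFOXF1/2 replicate 1. All 4 libraries held 4 of the 19 sites, against 13.5% in the genome. At these the summit level was higher in cJUN/JUND-KD at 1 and lower at 2, against 10.5% and 25.7% of 914 sites on chromosome 2. The surrounding level was likewise higher at 1 and lower at 2, against 15.6% and 33%. One of the lower sites was chr2:113568526-113571312, between the genes, with a summit level of 41.0 and 58.0 in Sen and 37.5 and 21.8 in cJUN/JUND-KD. The site with the higher level was chr2:113470600-113471554, on the far side of IL1A, with 12.1 and 11.3 in Sen and 34.6 and 21.8 in cJUN/JUND-KD (0.656% of the chromosome's sites had a ratio as high).

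The sip300/CBP comparison held too few peaks to describe the locus. Its Sen controls had 3 and 0 window peaks in lists of 8234 and 2046, and the sip300/CBP lists 0 and 1 in lists of 4186 and 1549 (log2 difference -0.50 ± 1.12 SE, n = 2 against 2; exact permutation p = 1). None of 4 sites was gained, lost or held by all 4 libraries, where 2.3%, 3.57% and 0.601% of sites in the genome were. The single peak after sip300/CBP was in the H3K27ac site upstream of IL1B at chr2:113638674-113640022.

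H3K27ac close to the gene positions was called in a minority of lists. The site nearest to IL1A, chr2:113541271-113542182, was held by Pro replicate 2 and siFOXF1/2 replicate 1, with 8 and 15 summit fragments. The site nearest to IL1B, chr2:113594065-113594867, was held by 5 of 14 lists. Its summit level was 5.23 in Pro replicate 2, 13.0 in Sen replicate 1, 12.1 and 13.8 after siFOXF1/2 and 8.89 in cJUN/JUND-KD replicate 1.

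**Figure D5:**
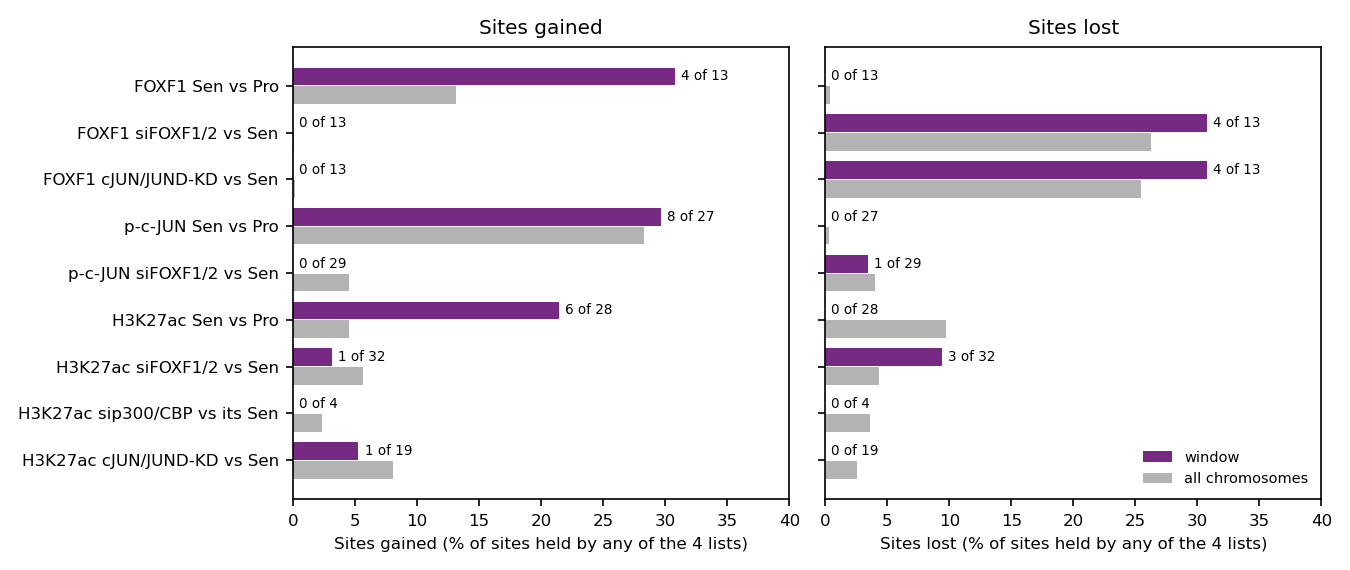
Share of sites gained (left) and lost (right) in the window (purple, with counts) and over all chromosomes (grey), for the 9 comparisons. Bars are percent of the sites held by any of the 4 lists compared. The window bars exceed the genome's for sites gained in senescence of FOXF1 (30.8% against 13.1%) and H3K27ac (21.4% against 4.52%), while the p-c-JUN bar (29.6%) is close to the genome's (28.3%).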

How the data were processed

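The 28 peak lists are narrowPeak files on hg19, 1 per library and none pooled. The submitters' processing notes list MACS2 3.0.0 as well as Bowtie2 2.3.4.1, but the calling options, any control library and any use of the yeast spike-in are not given in the sources used here. Each deposited row holds a display score, a fold enrichment (a ratio of summit to local background) and -log10 p and q values, all made by the authors. Folds were used only within a list.

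The members, site classes and lists were chosen with earlier results of these data known. Peaks off chromosomes 1 to 22 and X (475, 0.0423%) were left out of genome shares. The named sites were every FOXF1 site of both Sen libraries, p-c-JUN sites gained or lost in senescence or after siFOXF1/2 or held by all 6 libraries, H3K27ac sites gained or lost in any comparison, and the site of each antibody nearest to each gene position. Sites named for their levels alone were chosen after their values were seen.

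Summit fragments and local background were solved from the deposited fold and p as fold = (fragments + pseudocount) / (background + pseudocount), with a pseudocount of 1 and p from the Poisson upper tail. Solutions reached the deposited p within 0.005 for 100% of up to 300 checked peaks per list. The lowest background per list was read from up to 1500 peaks of chromosome 2. The share of window peaks per 10000 was tested in 12 ways. These tests were not among those planned, and their p-values are not adjusted. Levels at called peaks say nothing of libraries without a peak. The rule for gained and lost sites was tested on simulated lists with planted sites, where every other peak belonged to 1 list only. That checks the counting and not how reliable the calls in the deposited lists are. Analyses used Python 3.11.15, numpy 2.4.6, pandas 2.3.3, scipy 1.17.1 and matplotlib 3.10.9. No genome or gene annotation of hg19 was used here, so genes of the IL-1 pathway and cell type markers were not analysed.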

Additional observations from a re-analysis of the deposited data

Results flagged for a closer look

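The share of the H3K27ac Sen lists that lies in the window had 1 value apart from the others. Sen replicate 3 had 2.25 window peaks per 10000, and the other 3 libraries had 2.95, 2.96 and 3.00. The gap to the nearest of the others was 0.932 of the group's range, above Dixon's critical value for 4 samples. Chance passes that critical value in about 1 of 20 groups.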

How the results depend on the processing

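The alternatives with Sen replicates 3 and 4 and those for levels were chosen after seeing the data, and no cause of a change was tested. Among peaks with -log10 q of 5 or more, gained sites were 1 for FOXF1, 5 for p-c-JUN and 3 for H3K27ac in senescence. After siFOXF1/2 they were 2 for p-c-JUN and 0 for H3K27ac. Lost sites were 1 for FOXF1 in either knockdown and 2 for p-c-JUN after siFOXF1/2. The log2 differences after siFOXF1/2 turned to 0.13 for p-c-JUN and 0.0688 for H3K27ac. With lists of equal length, gained sites were 1 for FOXF1 and 2 for p-c-JUN in senescence and 1 for p-c-JUN after siFOXF1/2. Lost sites were 0 for FOXF1 in either knockdown, 5 for H3K27ac after siFOXF1/2 and 2 in cJUN/JUND-KD. The log2 differences were 0 for FOXF1 in either knockdown and for sip300/CBP. Joining only where 0.5 of the shorter peak overlapped gave 1 gained p-c-JUN site after siFOXF1/2, and joining 4 lists gave 1 lost H3K27ac site in cJUN/JUND-KD. With all 4 Sen libraries, H3K27ac had 1 gained site in senescence, and after siFOXF1/2 0 lost sites and a log2 difference of 0.31. With Sen replicates 3 and 4 alone, the senescence comparison gave -0.32, 1 gained and 1 lost site (0.92 and 1 gained at equal length), and siFOXF1/2 gave 0.86, 4 gained and 0 lost (0 and 0 at equal length). Setting chromosome medians equal left 1 higher and 4 lower H3K27ac summits after siFOXF1/2. A pseudocount of 0.5 and counting by summit changed no direction.

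Leaving out 1 library in turn, the log2 differences ranged from -0.33 to 0.23 for p-c-JUN after siFOXF1/2, turning above 0 without siFOXF1/2 replicate 1 or Sen replicate 2. They ranged from -0.57 to 0.53 for H3K27ac in cJUN/JUND-KD, above 0 without cJUN/JUND-KD replicate 2 or Sen replicate 3, and from -1.50 to 0.50 for sip300/CBP, above 0 without control replicate 1. Gained sites in senescence ranged from 4 to 12 for FOXF1, 8 to 19 for p-c-JUN (both highest without Sen replicate 1) and 6 to 11 for H3K27ac (without Sen replicate 2), with 0 to 1 H3K27ac sites lost. FOXF1 lost 4 to 13 in either knockdown. After siFOXF1/2, p-c-JUN gained 0 to 3 and lost 1 to 6, and H3K27ac gained 1 to 4 and lost 3 to 9. In cJUN/JUND-KD H3K27ac gained 1 to 6 and lost 0 to 4, and with sip300/CBP 0 to 1 and 0 to 3. For levels after siFOXF1/2, p-c-JUN summits were higher at 3 to 5 sites and lower at 4 to 7, its surroundings higher at 2 to 6 and lower at 4 to 7, and H3K27ac summits higher at 3 to 5 and lower at 2 to 5. In cJUN/JUND-KD both levels were higher at 1 to 2 sites. H3K27ac summits in senescence were lower at 0 to 1.

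The groups share replicate numbers, but the labels tie no pairs together. With the number as a replicate block the log2 differences kept their values and the smallest exact p was 0.5, for example 0.78 for H3K27ac in senescence. Deviations of same-numbered libraries correlated between -0.02 and 0.34. Short lists limit the FOXF1 knockdown and sip300/CBP results.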

Other observations

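Between the positions of the 2 genes the p-c-JUN lists held 2 and 4 peaks in Pro, 7 and 8 in Sen and 5 and 5 after siFOXF1/2. The H3K27ac lists held 4 and 5 in Pro, 7 and 7 in the first-deposit Sen libraries, 4 and 5 in the later ones and 5 and 5 after siFOXF1/2. In cJUN/JUND-KD they held 5 and 3. These counts were not tested and are not scaled to the lengths of the lists. After siFOXF1/2, 4.04% of p-c-JUN sites and 4.36% of H3K27ac sites were lost over the genome. The FOXF1 lists held 0 and 0 in Pro and 3 and 5 in Sen.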
